A study of Mus musculus with 6 samples.

Results

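The cadherin and protocadherin genes of the mouse heart were followed at E13.5 in embryos in which Wt1 was deleted in cells expressing cardiac troponin T. The members are all genes of the deposited tables whose symbol is Cdh followed by a number or Pcdh followed by a number or by a, b or g, except Cdh1, Cdh2 and Cdh5. There were 90 such genes among the 46983 listed. Of these, 85 had a count in at least 1 heart, and 69 passed the filter on low counts and were tested. The rule goes by gene symbol and uses no measured value, although this family was picked for description with earlier results of these data known.

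RNA was sequenced from whole hearts, 1 heart per library, of embryos of a C57BL/6 x DBA/2 background. The mutant hearts (replicates 1, 5 and 10) are labelled TnnT2Cre;Wt1flox, and the control hearts (replicates 2, 3 and 5) are labelled wild type. The methods give the controls as Wt1 flox/flox embryos without the Cre transgene, so the floxed alleles were shared by mutant and control hearts. The Tnnt2 promoter drives Cre in the myocardium from early stages and also in a fraction of the epicardial lineage, and the whole heart also held cells outside these lineages. The comparison therefore asks whether the level of each adhesion gene in the whole heart differed between these genotypes. In RNA of a whole organ, fewer cells of a type and less RNA per cell cannot be told apart.

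Cadherins are transmembrane proteins that hold neighbouring cells together through calcium-dependent contacts of their extracellular repeats. Classical type I and type II cadherins bind like molecules on the next cell and anchor actin through beta-catenin, p120-catenin and alpha-catenin; the cardiomyocyte's own classical cadherin, Cdh2, and that of endothelium, Cdh5, are not among the members. Protocadherins lack the catenin-binding tail. The nonclustered ones, among them the delta protocadherins, are separate genes, whereas the alpha, beta and gamma protocadherins lie in tandem clusters. In the alpha and gamma clusters each variable first exon has its own promoter and is spliced to constant exons shared by the whole cluster, and CTCF with cohesin takes part in choosing which promoter is used.

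The upstream sequences of Cdh10, Pcdh7 and Pcdh18 are shown because these are the nonclustered genes described heart by heart below whose mutant and wild type values did not overlap. WT1 binds GC-rich DNA, and the motif GCGNGGGNG, which holds its known form, was searched on both strands in the 250 bases before each RefSeq gene start (build GRCm38.p6). Capitals mark a match. Each run is written 5′ to 3′ on the strand of the gene and was shortened where it reached an exon of a protein-coding gene in GENCODE M21, which left 250 bases for Cdh10 (+ strand), 136 for Pcdh7 (+ strand) and 241 for Pcdh18 (- strand). An upstream start of Cdh10 is also annotated, so that its run is intronic in that transcript. An exon of 4932441J04Rik, a noncoding gene of the opposite strand, covers the run of Pcdh7.
Cdh10 (chr15:18820079-18820328): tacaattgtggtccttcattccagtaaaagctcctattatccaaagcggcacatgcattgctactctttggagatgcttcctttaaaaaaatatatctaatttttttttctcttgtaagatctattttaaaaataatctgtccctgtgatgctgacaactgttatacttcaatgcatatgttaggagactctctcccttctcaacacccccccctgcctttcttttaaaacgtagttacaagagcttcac
Pcdh7 (chr5:57717831-57717966): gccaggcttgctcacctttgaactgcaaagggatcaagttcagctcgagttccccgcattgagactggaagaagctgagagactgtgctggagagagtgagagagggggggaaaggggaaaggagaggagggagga
Pcdh18 (chr3:49757326-49757566): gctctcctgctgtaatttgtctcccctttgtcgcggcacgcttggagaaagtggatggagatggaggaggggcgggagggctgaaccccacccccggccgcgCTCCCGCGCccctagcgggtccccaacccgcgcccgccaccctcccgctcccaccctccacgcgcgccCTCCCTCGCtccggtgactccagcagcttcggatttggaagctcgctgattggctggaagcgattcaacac
The run of Pcdh18 held 2 matches, CTCCCGCGC starting 148 bases and CTCCCTCGC starting 80 bases before the gene start, both as the reverse complement of the motif. No match was found in the runs of Cdh10 and Pcdh7. Counted by promoter, the motif was present in 10.5% of the 32851 RefSeq promoters. Counted by gene, it was present in 6 of the 22 members searched, none of them a clustered protocadherin. The units differ, so these shares cannot be set against each other and show no enrichment. Such a match is a description of letters and not a binding site.

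Total counts lay between 44244665 and 56373393 per heart. Wild type replicate 5 had the lowest total and stood apart in its trend with gene length: the Spearman correlation across 11795 genes of gene length with the heart's deviation from the mean of all hearts was -0.556 there and between -0.06 and 0.46 in the others. The counts of Wt1 itself were 2251, 1891 and 879 in the control hearts (replicates 2, 3 and 5) and 921, 1746 and 1796 in the mutant hearts (replicates 1, 5 and 10), a log2 fold change of -0.10 ± 0.31 (SE). These are counts over the whole gene in all cells of the heart, so they are no check of the deleted exon in the myocardium. Wild type replicate 2 and mutant replicates 5 and 10 had at least 15043 counts of Xist, and the other hearts at most 20, so the sexes were unequally placed in the groups, which bears on the X-linked members. The cardiomyocyte markers were abundant in each heart, with a summed level of 20325 to 25514 CPM (counts scaled to a common library size with TMM) in wild type and 23602 to 25835 in mutant hearts. Nothing in the labels says whether embryos shared a litter, so the p-values measure only the spread between these hearts.

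Levels of different genes were compared as FPKM, which divides by gene length. Averaged over the 6 hearts, 66 of the 90 members exceeded 0.1 FPKM, 20 exceeded 1 FPKM and 5 exceeded 10 FPKM. The 5 were the mesenchymal cadherin Cdh11 (56.2 FPKM), the delta protocadherin Pcdh7 (29.6), the GPI-anchored T-cadherin Cdh13 (21.9), the P-cadherin Cdh3 (21.1) and the delta protocadherin Pcdh18 (15.7). For comparison, the excluded Cdh2 had 84.4 FPKM and Cdh5 had 50.6 FPKM. Behind these came the gamma protocadherin Pcdhgc3 at 6.22 FPKM and the endothelial protocadherin Pcdh12 at 4.16 FPKM. This order depends on the length used, since the length behind the deposited FPKM of Cdh11 was 4216 bases and its annotated exons cover 8904. With the same counts divided by the exon bases that no other gene shares, 64, 23 and 4 members exceeded these levels. The 4 over 10 FPKM were Cdh11 (26.6), Cdh3 (19.1), Pcdhgc3 (13.3) and Pcdh7 (12.3), with Pcdh18 at 7.78 and Cdh13 at 4.33.

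**Figure D1:**
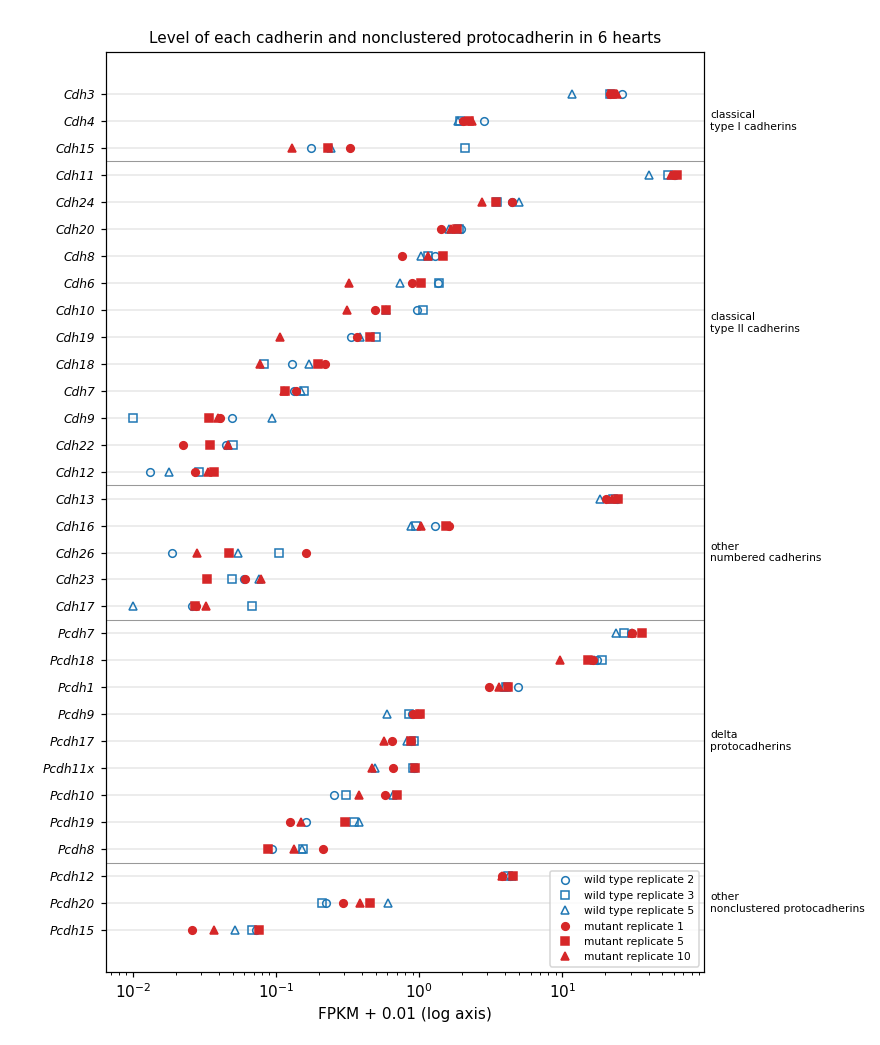
Deposited FPKM plus 0.01 (log axis) of each cadherin and nonclustered protocadherin, with 1 point per heart; open blue symbols are wild type and filled red symbols mutant hearts. Cdh11, Pcdh7, Cdh13, Cdh3 and Pcdh18 lie above 10 FPKM, and for most genes the points of both groups lie among each other, Cdh15 having 1 high wild type heart.

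In the comparison of mutant with wild type hearts 0 of the 69 tested members passed the adjusted threshold of 0.05 by edgeR's quasi-likelihood method, nor did any of the 17473 genes tested (0%). The smallest adjusted p of a member was 0.762. At an unadjusted p under 0.05 there were 5 members (7.25% of those tested), 4 of them higher and 1 lower in the mutant, against 5.73% of all genes (3.14% higher and 2.59% lower), a share near the background. DESeq2 was fitted on all genes with a count, among them 85 members. It gave an unadjusted p under 0.05 to 3 members, against 4.32% of 26776 genes. An adjusted p under 0.05 went to 0 of the 74 members for which it computed one, against 0.66% of 20013 genes. The values of the groups did not overlap in 9 members (13.04% of those tested), 7 higher and 2 lower, against 11.2% of all genes (6.61% higher and 4.59% lower). The log2 fold change was positive in 45 members and negative in 24, with a median of 0.13, while the median of all genes tested was -0.001. Leaving out wild type replicate 5 made the median of the members -0.03, leaving out mutant replicate 5 made it 0.03, and leaving out wild type replicate 2 made it 0.22. Without wild type replicate 5 the unadjusted p was under 0.05 in 5 of 70 members (Pcdh7, Pcdh10 and Pcdh20 higher, Cdh10 and Cdh15 lower), against 12.2% of all genes, of which 0.247% then passed the adjusted threshold.

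**Figure D2:**
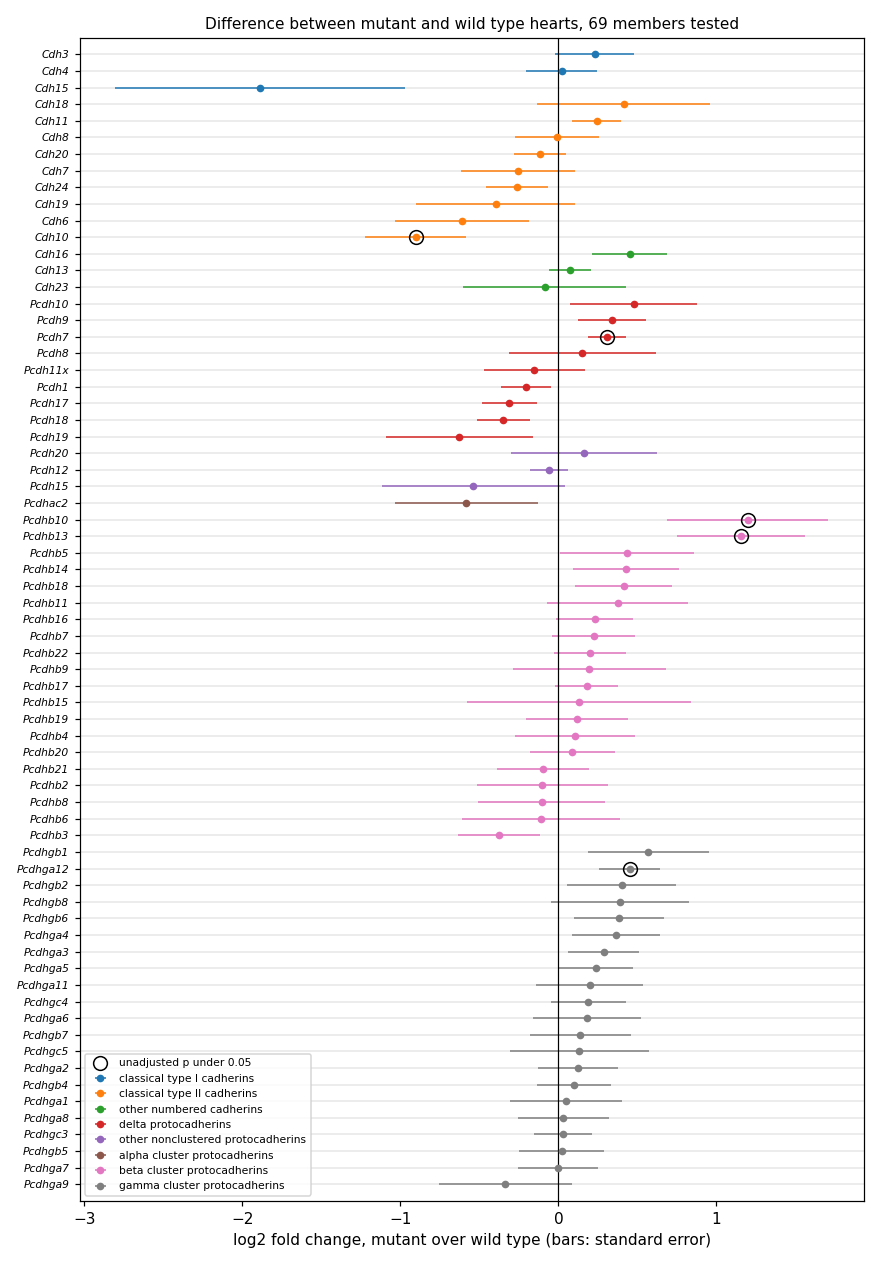
Log2 fold change of mutant over wild type with its standard error for the 69 tested members, coloured by family and ordered by value within each family; rings mark an unadjusted p under 0.05. The rings fall on Cdh10 on the negative side and on Pcdh7, Pcdhb10, Pcdhb13 and Pcdhga12 on the positive side, and 19 of the 21 gamma cluster members lie to the right of 0.

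Of the classical type I cadherins, Cdh3 was the most abundant. Cdh3 had 102, 83.3 and 46.6 CPM in wild type replicates 2, 3 and 5 and 83.3, 88.1 and 100.2 CPM in mutant replicates 1, 5 and 10. The groups overlapped, with the lowest value in wild type replicate 5, and the log2 fold change of 0.23 ± 0.25 (SE) became -0.03 without that heart. Cdh4, the R-cadherin described in retina and brain, had 4.26, 2.90 and 2.86 CPM in wild type and 3.06, 3.38 and 3.76 CPM in mutant hearts. These values interleave, and their log2 fold change was 0.02 ± 0.23 (SE).

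Cdh15, the M-cadherin of skeletal muscle and its satellite cells, was set apart by 1 control heart; it was singled out after its values were seen. It had 26, 333 and 29 counts (0.462, 5.79 and 0.659 CPM) in wild type replicates 2, 3 and 5. Mutant replicates 1, 5 and 10 had 46, 33 and 18 counts (0.885, 0.630 and 0.358 CPM). Its log2 fold change was -1.89 ± 0.92 (SE; unadjusted p = 0.0733 and adjusted p = 0.915 in edgeR's quasi-likelihood test). Leaving out wild type replicate 3 turned it to 0.17, and leaving out either of the other control hearts, replicates 2 and 5, gave -2.37 and -2.32 (unadjusted p = 0.017 and 0.0204 in edgeR's quasi-likelihood test). The muscle regulators Myod1 and Myog were high in the same heart, with 5.65 CPM of Myod1 there and 0.0962 to 0.550 in the other 5, and with 20.3 CPM of Myog there and 0.815 to 2.65 in the others. Of the 7 skeletal muscle markers, Myod1, Myog, Myf5, Pax3, Pax7 and Chrna1 had their highest value in wild type replicate 3, while Acta1, which heart muscle also expresses, had 203 CPM in wild type replicates 2 and 3 alike and 128 to 170.3 CPM in the others. Over the whole list the summed level was 131 to 234 CPM in wild type and 139.9 to 173 CPM in mutant hearts. The same heart also held 303 CPM of albumin (Alb) and a summed hepatocyte marker level of 744 CPM, against at most 19.6 CPM in any other heart. The part of these markers in the value of Cdh15 was not tested.

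**Figure D3:**
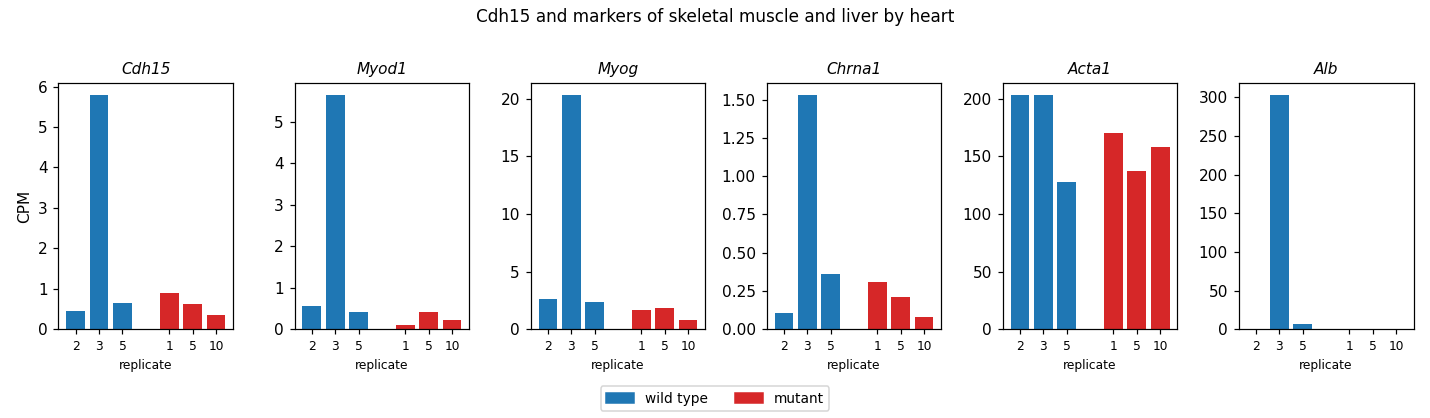
CPM of Cdh15, the skeletal muscle markers Myod1, Myog, Chrna1 and Acta1, and the hepatocyte marker Alb, with 1 bar per heart, wild type in blue and mutant in red, and a separate axis for each gene. Wild type replicate 3 holds the tallest bar for Cdh15 (5.79 CPM), Myod1, Myog, Chrna1 and Alb, whereas Acta1 is present in every heart.

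Among the 12 type II cadherins, which are found in mesenchyme, neural crest and nervous tissue, 9 were tested. Of these, 7 had a negative log2 fold change and the median was -0.25, or -0.13 without mutant replicate 10. Cdh10, a type II cadherin known mainly from the brain (chromosome 15, 18818947 to 19014236, + strand), was the only member lower in the mutant at an unadjusted p under 0.05. It had 161, 181 and 77 counts (2.86, 3.15 and 1.75 CPM) in wild type replicates 2, 3 and 5. Mutant replicates 1, 5 and 10 had 75, 91 and 49 counts (1.44, 1.74 and 0.974 CPM). Each mutant heart lay below each wild type heart, although wild type replicate 5 and mutant replicate 5 had nearly equal values (1.75 and 1.74 CPM). The means were 2.59 ± 0.74 and 1.38 ± 0.38 CPM (SD, n = 3 each). For Cdh10 the log2 fold change was -0.90 ± 0.32 (SE; unadjusted p = 0.0223 and adjusted p = 0.765 in edgeR's quasi-likelihood test). Leaving out each heart in turn moved it between -1.12 and -0.70, and the unadjusted p lay over 0.05 without wild type replicate 2, wild type replicate 3 or mutant replicate 10 (0.0603, 0.0756 and 0.0771).

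Cdh6, a type II cadherin of kidney epithelium and neural crest on the same chromosome, was looked at because of its value beside Cdh10. It had 3.48, 3.50 and 1.91 CPM in wild type and 2.29, 2.67 and 0.874 CPM in mutant hearts. The groups overlapped through wild type replicate 5, and the log2 fold change was -0.61 ± 0.42 (SE). Without mutant replicate 10, the lowest heart, it was -0.26, and without mutant replicate 5 it was -0.91. Cdh19, which is known from Schwann cell precursors, had a log2 fold change of -0.40 ± 0.50 (SE). The Schwann cell and neural crest markers had negative log2 fold changes in 7 of 8 genes, with a summed level of 36.9 to 52.0 CPM in wild type and 28.7 to 36.1 CPM in mutant hearts. Sox10, a defining marker of these cells, was detected in each heart at 0.941 to 1.82 CPM. Their part in the values of the type II cadherins was not tested.

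Cdh11, the most abundant member, had 255, 228 and 169.9 CPM in wild type and 251, 264 and 256 CPM in mutant hearts. Wild type replicate 5 was the lowest heart and the other 5 lay close together. The log2 fold change was 0.24 ± 0.15 (SE), and 0.09 without that heart, whereas it was 0.37 without wild type replicate 2 (unadjusted p = 0.0454 in edgeR's quasi-likelihood test). Cdh24, a broadly expressed type II cadherin, had 12.003, 9.34 and 13.52 CPM in wild type and 11.9, 9.25 and 7.93 CPM in mutant hearts, with a log2 fold change of -0.26 ± 0.20 (SE). Its groups overlapped, and with a heart left out the value ran from -0.43 to -0.13. Cdh20, Cdh8, Cdh18 and Cdh7 had log2 fold changes between -0.25 and 0.41 with unadjusted p of 0.474 or more. Cdh9, Cdh12 and Cdh22 did not pass the filter, with at most 12, 8 and 7 counts in any heart.

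The other numbered cadherins differ from the classical ones in their tails or repeats. Cdh13, the T-cadherin of vascular and muscle cells that binds adiponectin, had 52.3, 49.5 and 40.6 CPM in wild type and 44.0, 53.9 and 51.8 CPM in mutant hearts. The groups overlapped fully, with a log2 fold change of 0.07 ± 0.13 (SE). Cdh16, the kidney-specific cadherin, had 3.76, 2.75 and 2.64 CPM in wild type and 4.71, 4.58 and 3.22 CPM in mutant hearts. Mutant replicate 10 lay below wild type replicate 2, and the log2 fold change was 0.45 ± 0.24 (SE; unadjusted p = 0.0918 in edgeR's quasi-likelihood test). Without mutant replicate 10 it was 0.61 and without wild type replicate 2 it was 0.63, both with an unadjusted p under 0.05 (0.0399 and 0.0375). Cdh23, which forms the tip links of hair cells with Pcdh15, was near the limit of the filter, and Cdh17 and Cdh26 fell under it with at most 11 and 16 counts in any heart.

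Of the 9 delta protocadherins 1 was higher at an unadjusted p under 0.05, against 3.14% of all genes tested. Their median log2 fold change was -0.15, with 4 of 9 positive. Pcdh7 (chromosome 5, 57717967 to 58133230, + strand) had 103, 91.6 and 82.6 CPM in wild type replicates 2, 3 and 5 and 105, 125 and 113 CPM in mutant replicates 1, 5 and 10. All 3 mutant hearts lay above the wild type hearts, the nearest being wild type replicate 2. The means were 92.5 ± 10.3 and 114 ± 10.1 CPM (SD, n = 3 each). For Pcdh7 the log2 fold change was 0.31 ± 0.12 (SE; unadjusted p = 0.0329 and adjusted p = 0.827 in edgeR's quasi-likelihood test). It was positive with each heart left out (0.23 to 0.40), though its unadjusted p was over 0.05 without wild type replicate 3, mutant replicate 5 or mutant replicate 10 (0.083, 0.146 and 0.0733). Of the exon bases of Pcdh7, 21.1% are shared with other genes, among them 4932441J04Rik on the opposite strand, which had 217 to 267 counts per heart. The strand setting of the counting is not given in the sources used here, so reads of these genes on those bases cannot be told apart.

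Pcdh18, a delta protocadherin on chromosome 3 (49743296 to 49757325, - strand), had 45.7, 49.5 and 44.6 CPM in wild type and 42.8, 40.1 and 26.9 CPM in mutant hearts. The groups did not overlap, but mutant replicate 10 stood well below the other mutant hearts. Its log2 fold change was -0.35 ± 0.17 (SE; unadjusted p = 0.0746 and adjusted p = 0.918 in edgeR's quasi-likelihood test). With mutant replicate 10 left out it was -0.17, and with mutant replicate 1 left out it was -0.47 (unadjusted p = 0.0375 in edgeR's quasi-likelihood test). With gene length offsets it was -0.39 (unadjusted p = 0.0397). Pcdh9 was the other delta member without overlap, with a log2 fold change of 0.34 ± 0.22 (SE). Pcdh17, Pcdh1, Pcdh10 and Pcdh8 overlapped between groups, with log2 fold changes of -0.31, -0.21, 0.48 and 0.15. Without wild type replicate 5, in which Pcdh10 had 3.64 CPM against 1.33 and 1.63 CPM in the other control hearts, the value of Pcdh10 was 1.04 (unadjusted p = 0.00779 in edgeR's quasi-likelihood test).

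Both X-linked members overlapped between groups. Pcdh11x had 4.14, 4.09 and 2.25 CPM in wild type and 2.96, 4.23 and 2.25 CPM in mutant hearts, a log2 fold change of -0.15 ± 0.32 (SE). Pcdh19, mutated in an X-linked epilepsy, had 0.799, 1.77 and 1.95 CPM in wild type and 0.596, 1.55 and 0.775 CPM in mutant hearts, a log2 fold change of -0.63 ± 0.47 (SE). This became -1.14 without mutant replicate 5 (unadjusted p = 0.0478 in edgeR's quasi-likelihood test) and -0.37 without mutant replicate 1. Leaving out the control hearts 2 and 5 in turn gave -0.93 and -0.40. The values of Pcdh11x did not sort by the presence of Xist: the hearts with Xist had 4.14, 4.23 and 2.25 CPM. For Pcdh19 the 3 hearts with Xist had 0.799, 1.55 and 0.775 CPM and those without it 1.77, 1.95 and 0.596 CPM.

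Of the other nonclustered protocadherins, Pcdh12, which is expressed by endothelium, had 13.3, 12.8 and 14.1 CPM in wild type and 11.7, 14.2 and 12.5 CPM in mutant hearts. The groups overlapped, with means of 13.4 ± 0.62 and 12.8 ± 1.27 CPM (SD, n = 3 each) and a log2 fold change of -0.06 ± 0.12 (SE). Pcdh20 had 0.906, 0.835 and 2.57 CPM in wild type and 1.19, 1.89 and 1.71 CPM in mutant hearts. Wild type replicate 5 was its highest heart, and the log2 fold change of 0.16 ± 0.46 (SE) became 0.87 without it (unadjusted p = 0.0272 in edgeR's quasi-likelihood test). Pcdh15 had at most 17 counts in any heart and a log2 fold change of -0.54 ± 0.58 (SE).

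The alpha, beta and gamma clusters, which lie side by side on chromosome 18, hold 14, 22 and 22 of the members. Because genes of the alpha and gamma clusters share their constant exons, a median of 53.6% of the exon bases of an alpha member and 45.3% of those of a gamma member were also exon bases of another gene, whereas the median was 0% in the beta cluster, whose genes have no constant exons. The length behind FPKM includes the shared exons. The FPKM formula was therefore also applied with the unshared exon bases as the length. The full count of each gene was kept in it, which assumes that reads on shared exons were not counted. How such reads were treated is not given in the sources used here. In the alpha cluster at least 48.6% of each member's exon bases are shared, yet Pcdha1, Pcdha4 and Pcdha8 had 0 counts. Reads on the exons shared there were thus not counted for every gene that holds them. By the deposited FPKM 6 gamma members had a mean over 1, and on the unshared bases 13 had. Pcdhga10 has no unshared exon base in the annotation, since Gm26672 on the opposite strand (5 to 32 counts) covers its own exon, and it was listed with 0 counts in all hearts. The tables also list the symbols Pcdhga8 and Pcdha11 in duplicate. Of the 2 entries called Pcdhga8, GENCODE M21 names the one with the identifier ENSMUSG00000023036 Pcdhgc4, the name used here.

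**Figure D4:**
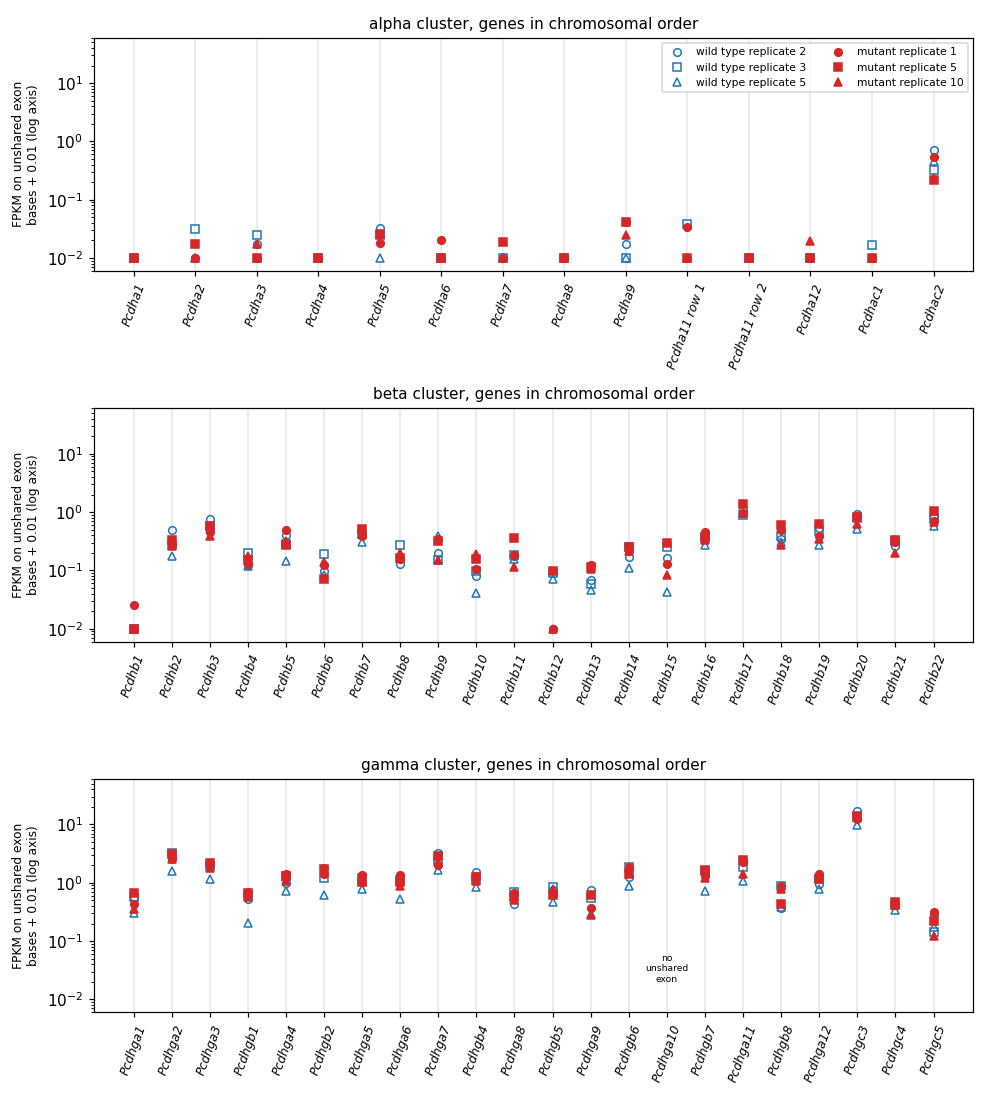
FPKM on unshared exon bases plus 0.01 (log axis) of each alpha, beta and gamma protocadherin in chromosomal order, with 1 point per heart; open blue symbols are wild type and filled red symbols mutant hearts. The alpha genes lie near 0 except Pcdhac2, the beta genes spread between about 0 and 1, and Pcdhgc3 (mean 13.3) stands above the other gamma genes.

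The alpha cluster was close to silent in these hearts. Of its 14 genes, 10 had any count, and Pcdhac2, the C-type gene nearest the constant exons, held 80.5% to 100% of the counts of the cluster in each heart. Pcdhac2 had 118, 53 and 60 counts (2.10, 0.922 and 1.36 CPM) in wild type and 82, 33 and 36 counts (1.58, 0.630 and 0.715 CPM) in mutant hearts. Wild type replicate 2 and mutant replicate 1 were the high hearts of their groups and the groups overlapped, with a log2 fold change of -0.58 ± 0.45 (SE). It was -0.22 once wild type replicate 2 was left out, and leaving out mutant replicate 1 gave -1.12 (unadjusted p = 0.0365 in edgeR's quasi-likelihood test). The next alpha gene, Pcdha9, had 1, 0 and 0 counts in wild type and 4, 4 and 2 counts in mutant hearts, close to the limit of 3 counts that a count of 0 allows, and was not tested. Pcdha5, Pcdha11, Pcdha2 and Pcdha3 had at most 3, 4, 3 and 2 counts in any heart, and Pcdha6, Pcdha7, Pcdha12 and Pcdhac1 had 1 count each, summed over the hearts. Pcdha1, Pcdha4, Pcdha8 and the other entry called Pcdha11 had 0 counts, which is a limit of this depth and not absence.

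In the beta cluster each gene is a single coding exon, and most genes share no exon bases with another gene. The share reached 63.5% in the beta gene with the most, so assignment of reads is not equally clear for all of them. All 22 genes had a count and 20 were tested, of which 15 had a positive log2 fold change, with a median of 0.19. Of the 20, 2 had an unadjusted p under 0.05, both higher, against 3.14% of all genes tested that were higher. Pcdhb17 and Pcdhb22 were the most abundant. Pcdhb17 had 4.92, 4.07 and 4.48 CPM in wild type and 4.31, 6.31 and 4.61 CPM in mutant hearts. Pcdhb22 had 4.97, 4.49 and 3.54 CPM in wild type and 4.17, 6.41 and 4.37 CPM in mutant hearts. For both genes mutant replicate 5 was the highest heart and the rest overlapped, and their log2 fold changes of 0.18 ± 0.20 and 0.20 ± 0.23 (SE) became -0.02 and -0.03 without it.

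The beta genes with an unadjusted p under 0.05 were among the lowest tested. Pcdhb13 had 12, 10 and 6 counts (0.213, 0.174 and 0.136 CPM) in the control hearts (replicates 2, 3 and 5) and 22, 20 and 19 counts (0.423, 0.382 and 0.378 CPM) in the mutant hearts (replicates 1, 5 and 10). Pcdhb10 had 11, 14 and 4 counts (0.195, 0.243 and 0.0909 CPM) in wild type and 14, 22 and 28 counts (0.269, 0.420 and 0.556 CPM) in mutant hearts. All mutant hearts lay above all wild type hearts on the CPM scale for both genes, clearly so for Pcdhb13. The log2 fold changes were 1.16 ± 0.41 (SE; unadjusted p = 0.0213 and adjusted p = 0.762 in edgeR's quasi-likelihood test) for Pcdhb13 and 1.20 ± 0.51 (SE; unadjusted p = 0.0455 and adjusted p = 0.861) for Pcdhb10. DESeq2 gave them unadjusted p of 0.0608 and 0.0738. With a heart left out, the value of Pcdhb13 ran from 1.02 to 1.32, and its unadjusted p was over 0.05 when wild type replicate 3 or 5 was left out (0.0665 and 0.0776) or mutant replicate 1 or 5 (0.0618 and 0.0607). That of Pcdhb10 ran from 0.91 to 1.495, with an unadjusted p over 0.05 when wild type replicate 2 or 5 was left out (0.0841 and 0.132) or mutant replicate 5 or 10 (0.105 and 0.157). The remaining tested beta members had log2 fold changes between -0.37 (Pcdhb3) and 0.43 (Pcdhb5), and Pcdhb12 and Pcdhb1 fell under the filter with at most 5 and 2 counts in any heart.

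All gamma members but Pcdhga10 were tested, and 19 of these 21 had a positive log2 fold change, with a median of 0.18. Of the 21, 1 was higher at an unadjusted p under 0.05, against 3.14% of all genes tested. Pcdhgc3 dominated the cluster, with 26.1% to 32.3% of its counts in each heart. It had 30.03, 24.1 and 17.7 CPM in wild type and 22.2, 25.3 and 25.8 CPM in mutant hearts. The spread among the control hearts was wider than the difference between the groups, whose means were 23.9 ± 6.19 and 24.4 ± 1.95 CPM (SD, n = 3 each). The log2 fold change of Pcdhgc3 was 0.03 ± 0.18 (SE). Pcdhga2 had 7.48, 8.07 and 4.07 CPM in wild type and 6.52, 7.99 and 6.92 CPM in mutant hearts. Here too the groups overlapped and wild type replicate 5 was the lowest heart, with a log2 fold change of 0.13 ± 0.25 (SE) that became -0.12 without it.

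Pcdhga12, the last of the A-type genes of the cluster, was the gamma member with an unadjusted p under 0.05. It had 3.87, 4.61 and 3.25 CPM in wild type replicates 2, 3 and 5 and 5.66, 4.67 and 5.72 CPM in mutant replicates 1, 5 and 10. Mutant replicate 5 lay just above wild type replicate 3, so that the groups did not overlap. Its log2 fold change was 0.45 ± 0.19 (SE; unadjusted p = 0.0468 and adjusted p = 0.865 in edgeR's quasi-likelihood test). With a heart left out it ran from 0.34 (without wild type replicate 5) to 0.59, and its unadjusted p was over 0.05 when wild type replicate 2 or 5 was left out (0.0936 and 0.104) or mutant replicate 1 or 10 (0.121 and 0.127). It was 0.0518 with upper quartile scaling and 0.072 with gene length offsets. Pcdhgb1 and Pcdhgc4 also did not overlap, with log2 fold changes of 0.57 ± 0.38 and 0.19 ± 0.24 (SE). The lowest fold change of the cluster was -0.34 ± 0.42 (SE) in Pcdhga9.

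The level of each family was also summed heart by heart. Summed over the gamma cluster, wild type replicates 2, 3 and 5 had 94.0, 86.6 and 54.7 CPM and mutant replicates 1, 5 and 10 had 85.0, 90.2 and 86.2 CPM. The beta cluster had 33.3, 31.2 and 24.1 CPM in wild type and 31.5, 39.5 and 28.6 CPM in mutant hearts. For gamma, the mutant hearts lay between wild type replicates 3 and 2 or next to them, and the low control value was that of replicate 5. In that heart 18 of 21 tested gamma members and 15 of 20 tested beta members were below both other control hearts. It was the lowest of the 6 hearts for 35 of the 69 tested members (50.7%), against 31.1% of all genes tested. Without it the median log2 fold change fell to 0.05 for the gamma cluster and to 0.08 for the beta cluster, the median of all genes then being 0.004. The beta median fell further, to 0.04, without mutant replicate 5, the heart with the highest beta sum, and the gamma median was then 0.13. The part of the length trend of that heart in these values was not tested beyond the fit with length offsets, in which the medians were 0.13 and 0.11.

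**Figure D5:**
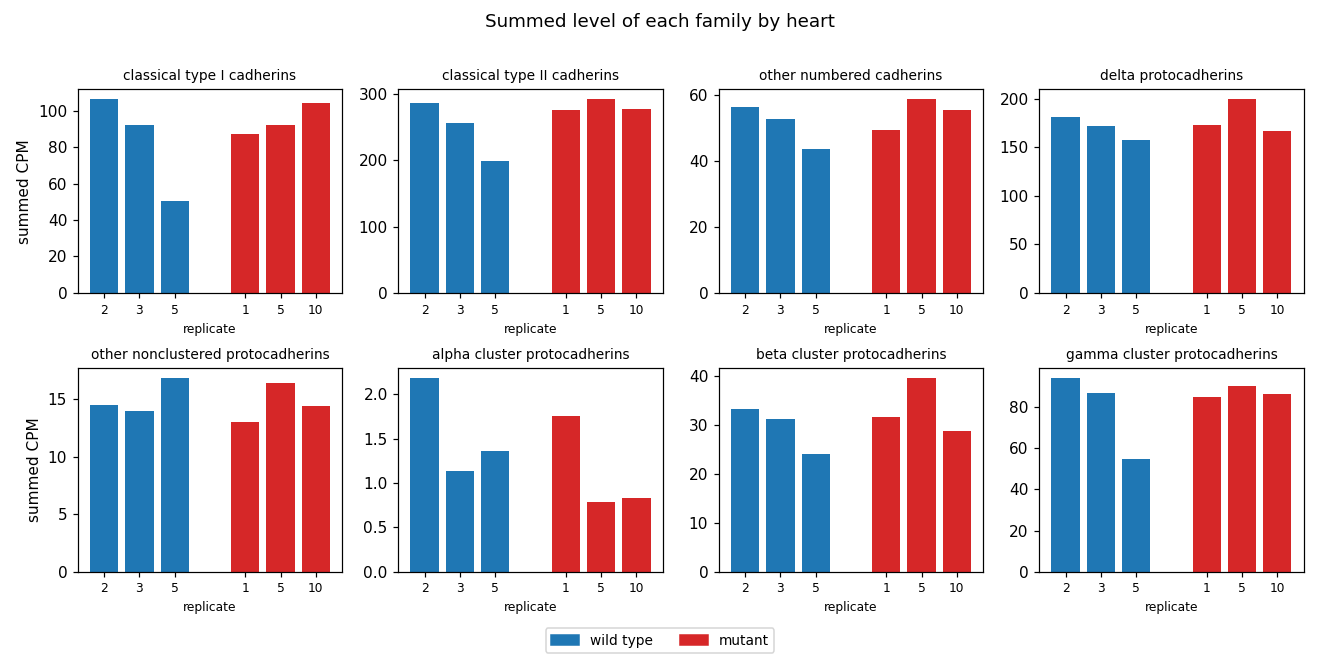
Summed CPM of all members of each family, with 1 bar per heart, wild type replicates 2, 3 and 5 in blue and mutant replicates 1, 5 and 10 in red, each family on its own axis from 0. Wild type replicate 5 holds the lowest bar for the type I and type II cadherins, the other numbered cadherins, the delta protocadherins and the beta and gamma clusters, and the ranges of both groups overlap in every family.

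The other families summed as follows. The type I cadherins had 106, 92.0 and 50.2 CPM in wild type and 87.2, 92.1 and 104 CPM in mutant hearts, nearly all of it Cdh3. The type II cadherins, led by Cdh11, had 286, 257 and 199 CPM in wild type and 276, 292 and 278 CPM in mutant hearts. The delta protocadherins, led by Pcdh7, had 181, 172 and 157 CPM in wild type and 173, 199 and 166 CPM in mutant hearts. In each of these families the ranges of the groups overlapped.

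The partners of cadherins were read from the same fit. Of the 19 catenins and junction partners, all tested, 14 had a positive log2 fold change, with a median of 0.04. Against 5.73% of all genes tested (3.14% higher and 2.59% lower), 2 of the 19 had an unadjusted p under 0.05, both higher. These were the desmosomal plakophilin Pkp3, at 2, 11 and 12 counts in wild type and 33, 50 and 20 counts in mutant hearts, with a log2 fold change of 2.01 ± 0.65 (SE; adjusted p = 0.696 in edgeR's quasi-likelihood test), and Ctnna3, the alpha-catenin of the heart's area composita, at 20.7, 20.7 and 15.8 CPM in wild type and 24.0, 24.2 and 27.0 CPM in mutant hearts, with a log2 fold change of 0.39 ± 0.13 (SE; adjusted p = 0.733). The groups did not overlap in 3 of the 19, all higher and Pkp3 and Ctnna3 among them, against 11.2% of all genes tested (6.61% higher). 

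The other partner lists held 0 genes that passed an unadjusted p of 0.05 by edgeR. Among the 9 tested giant and flamingo cadherins (Fat, Dachsous and Celsr genes with Fjx1, a relative of the Fat kinase Four-jointed), 5 had a positive log2 fold change, and the smallest p was that of Fjx1 (log2 fold change -0.31, adjusted p = 0.951). The excluded Cdh1, Cdh2 and Cdh5 were all positive, with the smallest p for Cdh5 (0.30, adjusted p = 0.966). Of 14 regulators of the protocadherin clusters (CTCF, cohesin and its loaders, DNA methyltransferases and other silencing factors), 11 were positive, with the smallest p for the cohesin subunit Stag2 (0.15, adjusted p = 0.985). Of 14 protocadherin effectors (focal adhesion kinases, Fyn, the WAVE complex), 10 were positive, with the smallest p for the WAVE subunit Nckap1 (0.22, adjusted p = 0.954).

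Markers of the cell types of the heart and its surroundings moved unevenly between the groups. Of the macrophage markers 5 of 6 were higher in the mutant at an unadjusted p under 0.05, and of the platelet markers 3 of 4. Over all genes tested, 3.14% were higher and 2.59% lower at that level. The groups did not overlap in 5 macrophage and 3 platelet markers, all higher, against 6.61% of all genes. The macrophage sum was 63.0 to 71.2 CPM in wild type and 88.5 to 98.9 CPM in mutant hearts. The platelet sum was 19.8 to 29.9 and 32.5 to 46.6 CPM. In the mesenchymal list, with 5 of 9 positive, Tcf21 was lower (-1.10) and Col1a1 and Col1a2 were higher (0.95 and 0.76), with 2292 to 3236 CPM in wild type and 3229 to 4524 CPM in mutant hearts. In the epicardial list, with 5 of 8 positive, Upk1b and Msln were higher (0.96 and 0.61), with 226 to 469.6 and 269 to 504 CPM. Of the endothelial markers, with 6 of 7 positive, Emcn was higher (0.25), with 764 to 1021 and 918 to 1125 CPM, and of the cardiomyocyte markers Myl7 was lower (-0.48), while 6 of 9 were positive (median 0.11). Ngfr in the Schwann and neural crest list was lower (-1.27), and Prph in the neuronal list higher (1.45), although 6 of 8 neuronal markers were negative (median -0.23), with 20.3 to 24.8 and 20.9 to 23.7 CPM for the neuronal sum. Krt8 in the foregut list was higher (1.13), although 4 of 6 tested markers were negative (median -0.12), while Nkx2-1 was at 0 in wild type replicates 2 and 3 and mutant replicate 10, and the summed level was 22.4 to 30.6 CPM in wild type and 38.0 to 56.9 CPM in mutant hearts. The skeletal muscle genes Myog and Myod1 and the hepatocyte genes Alb, Apoa1 and Ttr were lower at an unadjusted p under 0.05. The median log2 fold change of the skeletal muscle list was -2.14, and -0.49 without wild type replicate 3. That of the hepatocyte list was -4.45, and 0.18 without that heart. The values in parentheses are log2 fold changes, each with an adjusted p of 0.113 or more in edgeR's quasi-likelihood test. The part of these markers in the values of the members was not tested.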

How the data were processed

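Hearts were sequenced as paired reads, 1 heart per library, 3 per group. Per the methods, the authors used Trim Galore for trimming, STAR for alignment to mm10 and featureCounts to assign uniquely mapped reads to genes, while the submitters' processing notes name HTSeq and DESeq2. The authors deposited counts per gene, not normalized, and FPKM values; each deposited FPKM equals the count divided by a fixed gene length and the total count of the heart (largest relative deviation 8.0e-15).

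The counts were fitted over all genes with edgeR's quasi-likelihood test (edgeR 4.0.16, R 4.3.3; TMM, filterByExpr with a minimum count of 10 and a minimum total of 15, no covariates, two-sided, Benjamini-Hochberg adjustment, threshold 0.05). The filter left 17473 of the 26831 genes with a count. CPM were scaled by TMM. The fit was run on counts simulated from its own means and dispersions, with large changes added to genes with higher counts. That run does not cover small differences, low counts or a trend with gene length in 1 heart. Alternatives were DESeq2 1.42.0, RLE and upper quartile scaling, no filter, limma 3.58.1 (trend) on log2(FPKM + 1) and log2(FPKM + 0.1), gene length offsets (local regression, span 0.5), log2 CPM of Xist as a covariate, each heart left out, and levels per unshared exon (GENCODE M21, GRCm38). All 90 members were matched to GENCODE M21. Families are shown by counts and medians without a test, since their genes are not replicates. The limit of detection covers counting error only, and reads carried no molecular identifiers. Each SE of a log2 fold change comes from the fit and includes the spread between hearts.

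Values in every heart are given for members with an unadjusted p under 0.05, for the 2 members of each family with the highest mean CPM and for Pcdh11x and Pcdh19. From other lists the genes with an unadjusted p under 0.05 are named, or else the gene with the smallest p. Other genes were named after their values were seen. The members and the lists were chosen with earlier results of these data known.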

Additional observations from a re-analysis of the deposited data

How the results depend on the processing

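No member reached an adjusted p under 0.05 under any of the 14 alternatives to the edgeR quasi-likelihood fit, whereas the count over all genes, 0 in that fit, was 132 in DESeq2, 34 without a filter, 6 with gene length offsets and 44 without wild type replicate 5, and 0 under the other 10. The number of members with an unadjusted p under 0.05 was less stable: against 4 higher and 1 lower, DESeq2 gave 2 higher, both limma fits on FPKM 0 higher, the Xist covariate 1 higher and 2 lower, no filter 2 lower and gene length offsets 3 lower, and leaving out a heart gave 1 to 5 higher and 0 to 3 lower (0 without wild type replicate 3 or mutant replicate 10, 2 without wild type replicate 5, 3 without mutant replicate 1 or mutant replicate 5; higher fell to 2 without mutant replicate 1 and to 1 without mutant replicate 5). The share of all genes at that level moved too: 4.32% in DESeq2, 5.66% and 5.52% in limma with a pseudocount of 1 and 0.1, 4.24% with Xist, 5.09% without a filter, 6.79% with gene length offsets, and with a heart left out from 3.44% (without mutant replicate 10) to 12.2% (without wild type replicate 5). With a heart left out the median log2 fold change of the other numbered cadherins ran from 0.065 to 0.33, that of the delta protocadherins from -0.32 to 0.043, that of the type II cadherins from -0.33 to -0.13 and that of all tested members from -0.03 to 0.22. With all hearts kept, the median of all tested members ran from 0.033 (limma with a pseudocount of 1) to 0.13 (no filter). It was 0.049 with gene length offsets and 0.049 with Xist as a covariate. Levels per unshared exon put 13 gamma members over 1 against 6 by FPKM. Of 322 values for the 23 tested members named by heart, 301 kept their direction and their side of the adjusted threshold and 21 turned in sign, and 13 of the 23 members kept their sign throughout. The 5 members with an unadjusted p under 0.05 lost that level in 34 of their 70 alternative values, and the others reached it in 11 of 252, in 7 members. The turned values were those of Cdh4 (-0.0017 with upper quartile scaling, -0.085 with Xist), Cdh13 (-0.0092 with Xist), Pcdh20 (-0.0088 with length offsets) and Pcdhgc3 (-0.023 with length offsets, -0.075 with Xist), and with a heart left out those of Cdh3 (-0.031 to 0.48), Cdh4 (-0.077 to 0.24), Cdh13 (-0.028 to 0.16), Pcdh20 (-0.11 to 0.87), Pcdhb17 (-0.018 to 0.29), Pcdhb22 (-0.031 to 0.31), Pcdhgc3 (-0.15 to 0.23), Pcdhga2 (-0.12 to 0.31), Pcdh11x (-0.43 to 0.043) and Cdh15 (-2.37 to 0.17). The cause was not tested. With 3 hearts a group and few counts for many members, a difference that misses the threshold does not show equal levels. No paired analysis was possible because the labels record no pairing of mutant with wild type hearts.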
